A study of Mus musculus with 12 samples.

Results

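Kif23, Racgap1, Ect2, Prc1, Kif4, Kif20a, Kif20b, Anln and Cep55 encode proteins of the central spindle, the contractile ring and the midbody, the structures that divide a cell after its chromosomes have separated. These 9 genes were taken by symbol, as a list drawn up by role with earlier results of these data known, from the 54735 gene symbols of each expression table. All 9 were present in every table and had a mean of at least 1 TPM (a transcript level scaled for gene length and to a fixed library sum), so all were among the 11764 genes tested. RNA was measured in the dorsal telencephalon (pallium, the future cerebral cortex) of C57/Bl6 mouse embryos at E13.5, with 12 libraries in 3 groups of 4. Control embryos were Rnu11wt/flx::Trp53wt/wt::Emx1-Cre+, Rnu11 cKO embryos were Rnu11flx/flx::Trp53wt/wt::Emx1-Cre+, and dKO embryos were Rnu11flx/flx::Trp53flx/flx::Emx1-Cre+. Rnu11 encodes the U11 small nuclear RNA of the minor spliceosome, and Trp53 encodes p53. All 3 groups carried Emx1-Cre, which is active in pallial progenitors and their descendants and not in vessels, microglia or meninges, and the controls carried 1 floxed Rnu11 allele. The labels do not say whether pallia were pooled or which embryos were littermates, so p-values measure only the spread between these libraries, each called an embryo here.

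Cytokinesis begins when antiparallel microtubules are bundled between the separating chromosomes into the central spindle. A RhoA activator recruited there starts an actomyosin ring at the cell equator, the ring closes the furrow, and the remaining bridge, the midbody, is cut by the ESCRT machinery. In the embryonic pallium these steps take place mainly in radial glia, which divide at the ventricle, and in intermediate progenitors. Transcripts of cytokinesis genes peak in G2 and M phase, and many of their promoters carry a CHR (cell cycle genes homology region, TTTGAA), an element bound by the DREAM and MuvB complexes, often near a CCAAT box bound by NF-Y. p53 acts on such promoters through p21 (Cdkn1a) and DREAM, which is why the CHR was looked for here.

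The promoters share the CHR close to the start of transcription, a feature that the list was not chosen by. RefSeq promoters (GRCm38.p6, 250 bases before to 50 after the start) were present for 8 of the 9 genes, with 11 entries. Each line gives 70 bases before to 30 after the start, 5′ to 3′ in the direction of the gene, with position +1 as the first transcribed base. Capitals mark TTTGAA or its reverse complement TTCAAA, and CCAAT or its reverse complement ATTGG.
Kif23 (CHR at +3 to +8, reverse CCAAT box at -7 to -3; chr9:61946770-61946869, minus strand): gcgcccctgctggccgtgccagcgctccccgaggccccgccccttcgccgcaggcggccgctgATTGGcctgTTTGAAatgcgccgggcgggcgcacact
Racgap1 (CHR at +6 to +11, reverse CCAAT box at -12 to -8; chr15:99651627-99651726, minus strand): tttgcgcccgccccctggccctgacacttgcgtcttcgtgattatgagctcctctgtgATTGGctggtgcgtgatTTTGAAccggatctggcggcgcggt
Ect2 (CHR at +16 to +21, CCAAT box from -23; chr3:27153825-27153924, minus strand): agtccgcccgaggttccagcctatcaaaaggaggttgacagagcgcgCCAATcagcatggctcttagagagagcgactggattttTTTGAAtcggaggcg
Prc1 (CHR from -5 to +1, CCAAT box from -37; chr7:80294381-80294480, plus strand): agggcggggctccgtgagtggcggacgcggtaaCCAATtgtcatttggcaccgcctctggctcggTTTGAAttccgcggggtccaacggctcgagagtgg
Kif4 (CHR at +20 to +25, reverse CCAAT box from -5; chrX:100625995-100626094, plus strand): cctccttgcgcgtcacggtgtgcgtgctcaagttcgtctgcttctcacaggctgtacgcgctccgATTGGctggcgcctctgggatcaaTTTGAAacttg
Kif20b (CHR at +8 to +13 and again at +14 to +19; chr19:34922288-34922387, plus strand): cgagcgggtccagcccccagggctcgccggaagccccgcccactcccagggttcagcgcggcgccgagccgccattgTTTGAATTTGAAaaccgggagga
Anln (reverse CHR at +22 to +27; chr9:22389177-22389276, minus strand): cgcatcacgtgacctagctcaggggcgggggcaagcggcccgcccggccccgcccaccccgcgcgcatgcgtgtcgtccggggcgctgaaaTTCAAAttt
Cep55 (reverse CHR at +25 to +30; chr19:38054914-38055013, plus strand): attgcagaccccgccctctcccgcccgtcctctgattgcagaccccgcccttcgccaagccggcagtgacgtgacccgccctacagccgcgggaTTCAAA
TTTGAA was present on either strand in all 11 entries, which belong to 8 of 8 genes, and in 5878 of the 32851 promoters of the table, or 17.9%. Counted by gene, 20.2% of 27025 genes had it in at least 1 promoter. Within 50 bases of the start it was found in all 11 entries (8 of 8 genes), against 4.94% of all promoters and 5.72% of genes. A fixed list of other G2 and M phase genes had it so close in 13 of 24 genes (54.2%), and a list of S phase genes in 0 of 18. Kif20b carried 2 copies in tandem, and Ect2 had a distant copy at -138 to -133. Anln had a second copy, forward, at +29 to +34, which the end of the printed stretch cuts off. The variant TTCGAA occurred in none of the 8 genes and in 1.56% of all promoters. CCAAT was found in 5 of the 8 genes, Kif23, Racgap1, Ect2, Prc1 and Kif4 (62.5%), against 41.1% of all genes, 75.0% of the other G2 and M phase genes and 66.7% of the S phase genes. None of these matches overlapped another. Each match is a run of letters in the sequence, with no binding measured.

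**Figure D1:**
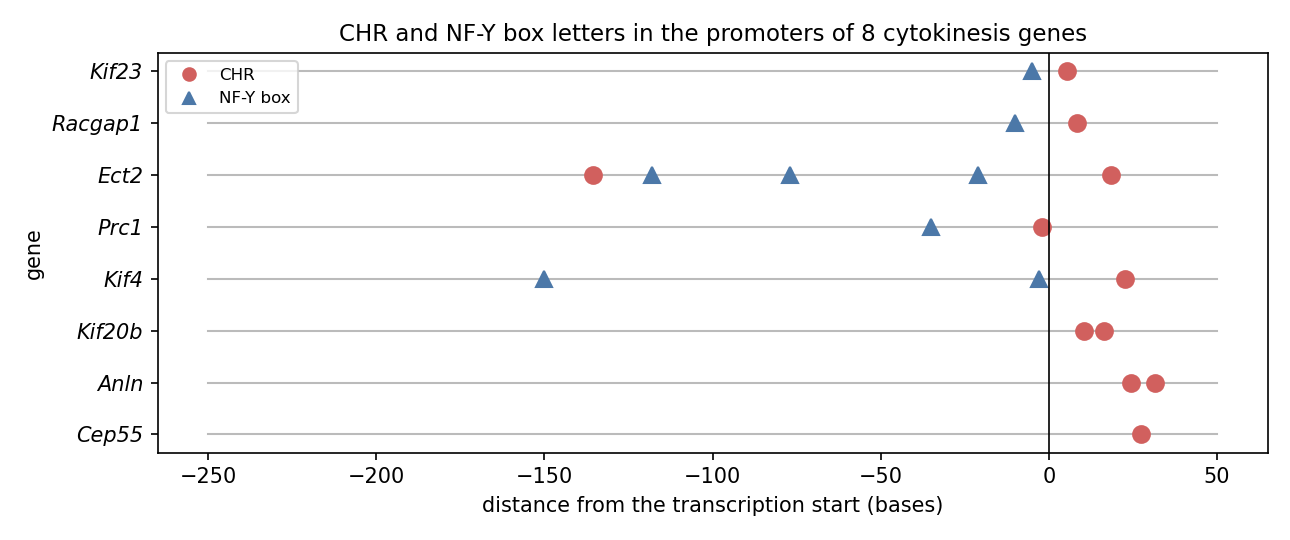
Position of TTTGAA and CCAAT matches on either strand in the RefSeq promoters of 8 cytokinesis genes. The horizontal axis is the distance in bases from the transcription start. Each row is 1 gene, drawn for the promoter entry printed above. All 8 drawn entries carry a TTTGAA match within 50 bases of the start, as do all 11 entries of these genes.

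Expression across the 12 libraries differed in ways that touch every value below. Protein-coding genes held 14.4% to 19.99% of the TPM of a library, and the median log2 difference over all tested genes was 0.25 between Rnu11 cKO and control, -0.01 between dKO and control, and -0.26 between dKO and Rnu11 cKO. Changes are therefore given on the log2(TPM + 1) scale as deposited and after centring, in which each library was shifted by its own median difference from the gene means. Rnu11 was at 640.5 ± 86.4 TPM in controls, 144.5 ± 20.4 in Rnu11 cKO and 163.8 ± 26.3 in dKO embryos (SD, n = 4 each), and Trp53 was at 3.82 ± 1.73, 4.24 ± 0.404 and 1.22 ± 0.252 TPM. Cdkn1a, the p21 gene, averaged 0.597, 3.61 and 0.425 TPM, and Mdm2, another p53 target, 14.8, 27.9 and 12.4 TPM. Of 11 tested p53 targets, 11 were called higher in Rnu11 cKO than in control, where 34.3% of all tested genes were. After centring 10 were, against 3.72% of all genes.

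In controls Kif23, Racgap1, Ect2 and Prc1 were the most abundant of the 9 genes. Kif23 averaged 30.2 TPM, Racgap1 25.8, Ect2 21.0 and Prc1 19.2, followed by Kif20a at 9.52, Anln at 8.76, Kif20b at 6.92, Kif4 at 6.23 and Cep55 at 5.66 TPM, all levels per length. Neighbours in this order had control ranges that did not overlap for Kif23 over Racgap1, Prc1 over Kif20a and Anln over Kif20b, and the other neighbours overlapped. The spread among 4 embryos, as the coefficient of variation, had a median over the 9 genes of 5.71% in controls, 16.0% in Rnu11 cKO and 8.43% in dKO embryos. Rnu11 cKO embryo 4 was the highest of the 12 libraries for 8 of the 9 genes as deposited and for 1 after centring.

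**Figure D2:**
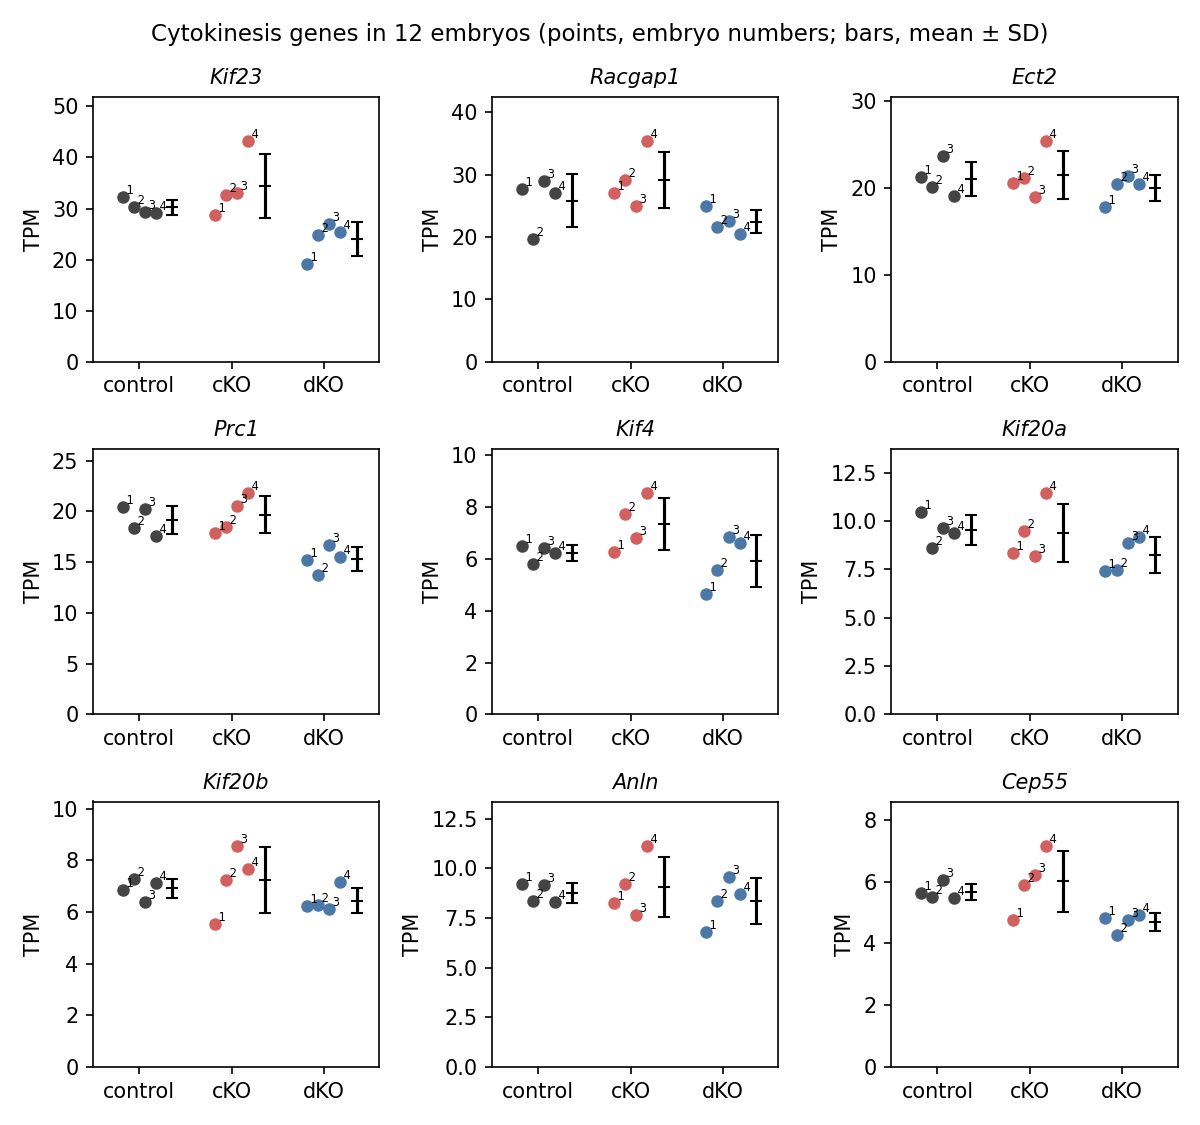
TPM as deposited of the 9 cytokinesis genes in 12 embryos; each point is 1 embryo, coloured by genotype, and bars give the mean with SD (n = 4). Kif23, Prc1 and Cep55 have all dKO points below all control points, and the Rnu11 cKO points are the most scattered for most genes.

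Kif23 (MKLP1) and Racgap1 (MgcRacGAP, CYK4) form centralspindlin, a complex of a plus-end kinesin-6 and a GTPase activating protein that bundles midzone microtubules and recruits Ect2. Kif23 (chr9:61915905-61946774, minus strand, GENCODE M21 on mm10) was measured at 32.3, 30.3, 29.3 and 29.0 TPM in control embryos 1 to 4, at 28.8, 32.7, 33.0 and 43.3 TPM in Rnu11 cKO embryos, and at 19.2, 24.8, 26.9 and 25.3 TPM in dKO embryos. Every dKO embryo was below every control and every Rnu11 cKO embryo, and the latter 2 groups overlapped. Its level in dKO was 79.5% of control and 69.9% of Rnu11 cKO. The log2 difference between dKO and Rnu11 cKO was -0.50 (SE 0.129, adjusted p = 0.0114, limma with Benjamini-Hochberg adjustment over all tested genes), and -0.23 (adjusted p = 0.209) after centring. Against control it was -0.33 (adjusted p = 0.174) in dKO as deposited and -0.31 (adjusted p = 0.0871) centred, short of the threshold of 0.05.

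Racgap1 (chr15:99620496-99651656, minus strand) was measured at 27.7, 19.7, 29.0 and 27.0 TPM in control embryos, at 27.0, 29.1, 25.0 and 35.4 TPM in Rnu11 cKO embryos and at 25.0, 21.7, 22.6 and 20.5 TPM in dKO embryos. Control embryo 2 was lower than every other library, so control and dKO overlapped. The difference of dKO from Rnu11 cKO was -0.35 log2 units (adjusted p = 0.0523) as deposited and -0.08 (adjusted p = 0.665) centred. It passed the threshold in the limma fit without control embryo 2 (adjusted p = 0.0259) and in that without Rnu11 cKO embryo 3 (adjusted p = 0.0349).

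Ect2 (chr3:27097222-27153878, minus strand), the guanine nucleotide exchange factor that activates RhoA at the equator, had the smallest differences of the 9 genes in each comparison as deposited. Control embryos were at 21.2, 20.1, 23.6 and 19.0 TPM, Rnu11 cKO embryos at 20.6, 21.2, 18.9 and 25.4 TPM, and dKO embryos at 17.8, 20.4, 21.3 and 20.5 TPM, with all 3 ranges overlapping. Its mean was 102% of control in Rnu11 cKO and 95.3% in dKO. The 95% interval of the dKO against control difference ran from -0.29 to 0.16 log2 units (adjusted p = 0.783 in limma). After centring, the Rnu11 cKO against control difference was -0.22 (adjusted p = 0.128).

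Prc1 crosslinks the antiparallel microtubules of the midzone, and Kif4 is the chromokinesin that travels with it to microtubule ends and limits their growth. Prc1 (chr7:80294450-80316259, plus strand) was measured at 20.5, 18.3, 20.2 and 17.6 TPM in control embryos, at 17.9, 18.5, 20.5 and 21.8 TPM in Rnu11 cKO embryos and at 15.2, 13.8, 16.7 and 15.5 TPM in dKO embryos. Every dKO embryo was below every embryo of the other groups, which overlapped each other. The level in dKO was 79.8% of control and 77.7% of Rnu11 cKO. Against Rnu11 cKO the log2 difference was -0.34 (SE 0.0896, adjusted p = 0.0118 in limma) as deposited and -0.07 (adjusted p = 0.625) centred. Against control it was -0.31 (adjusted p = 0.0694) as deposited and -0.29 (adjusted p = 0.0497) centred. That centred call was lost on leaving out any 1 embryo other than Rnu11 cKO embryo 3, with adjusted p from 0.0443 to 0.121 over the 12. Prc1 overlaps Rccd1 and 6330403N20Rik on the opposite strand. The libraries keep strand, but whether the counting used it is not given in the sources used here, and if not, reads of the overlapping parts cannot be told apart.

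Kif4 (chrX:100625737-100727214, plus strand) was measured at 6.50, 5.80, 6.41 and 6.23 TPM in control embryos, at 6.27, 7.74, 6.81 and 8.53 TPM in Rnu11 cKO embryos and at 4.63, 5.59, 6.83 and 6.62 TPM in dKO embryos. The dKO embryos spanned the control range on both sides, and dKO embryo 1 was the lowest of all 12. The dKO against Rnu11 cKO difference was -0.27 log2 units (adjusted p = 0.0725 in limma) as deposited and -0.00 (adjusted p = 0.984) centred. Among fits that left out 1 embryo it passed the threshold without Rnu11 cKO embryo 1 and without dKO embryo 3 (lowest adjusted p = 0.0417). Small or intronic RNA genes lie inside Ect2, Kif20b, Anln and Cep55. Kif4 overlaps Pdzd11 on the opposite strand and has a pseudogene, Kif4-ps, that could share reads.

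Kif20a (MKLP2), which carries the chromosomal passenger complex from chromosomes to the midzone, and Kif20b (MPHOSPH1), which acts at the midbody, are the other kinesin-6 genes. Kif20a (chromosome 18) was measured at 10.5, 8.59, 9.65 and 9.39 TPM in control embryos, at 8.36, 9.47, 8.16 and 11.4 TPM in Rnu11 cKO embryos and at 7.41, 7.49, 8.88 and 9.17 TPM in dKO embryos. The ranges overlapped as deposited. After centring every Rnu11 cKO embryo was below every control, with a difference of -0.28 log2 units (adjusted p = 0.0606 in limma), against -0.03 (adjusted p = 0.828) as deposited. That centred difference passed the threshold without Rnu11 cKO embryo 4, dKO embryo 2 or dKO embryo 4 (lowest adjusted p = 0.0441). Kif20a overlaps Cdc23 on the opposite strand.

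Kif20b (chr19:34922361-34975745, plus strand) was measured at 6.86, 7.28, 6.40 and 7.13 TPM in control embryos, at 5.52, 7.25, 8.57 and 7.69 TPM in Rnu11 cKO embryos and at 6.22, 6.28, 6.11 and 7.17 TPM in dKO embryos. The Rnu11 cKO embryos held both the lowest and the highest of the 12 values, and all groups overlapped. The differences from control were 0.05 log2 units (adjusted p = 0.728 in limma) in Rnu11 cKO and -0.09 (adjusted p = 0.709) in dKO. Against Rnu11 cKO the dKO difference was -0.14 (adjusted p = 0.307), and it passed without Rnu11 cKO embryo 1 (adjusted p = 0.0361).

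Anln encodes anillin, the scaffold that links RhoA, actin, myosin and septins in the contractile ring. Anln (chr9:22332012-22389188, minus strand) was measured at 9.24, 8.36, 9.15 and 8.31 TPM in control embryos, at 8.28, 9.19, 7.65 and 11.1 TPM in Rnu11 cKO embryos and at 6.77, 8.35, 9.55 and 8.69 TPM in dKO embryos. All groups overlapped as deposited. Centred values of Rnu11 cKO embryos were all below those of controls, by 0.22 log2 units on average (adjusted p = 0.175 in limma), with Rnu11 cKO embryo 4 close to control embryo 4. The dKO mean was 95.2% of control.

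Cep55, the midbody protein that recruits ESCRT components for abscission, had the lowest mean of the 9 genes. Cep55 (chr19:38055011-38074423, plus strand) was measured at 5.64, 5.49, 6.05 and 5.47 TPM in control embryos, at 4.76, 5.90, 6.23 and 7.16 TPM in Rnu11 cKO embryos and at 4.82, 4.26, 4.75 and 4.93 TPM in dKO embryos. Every dKO embryo was below every control, and Rnu11 cKO embryo 1 lay inside the dKO range. The log2 difference of dKO from Rnu11 cKO was -0.29 (SE 0.0971, adjusted p = 0.0325 in limma) as deposited and -0.02 (adjusted p = 0.898) centred. The call as deposited was lost without Rnu11 cKO embryo 2, 3 or 4 and without dKO embryo 2 or 3, with adjusted p up to 0.0940. Against control the dKO difference was -0.23 (adjusted p = 0.210) as deposited and -0.21 (adjusted p = 0.141) centred.

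Between Rnu11 cKO and control, 0 of the 9 genes passed limma's threshold, as deposited or after centring, with adjusted p from 0.179 to 0.828 and from 0.0606 to 0.810. Of all tested genes 34.3% were called higher and 1.09% lower as deposited, and 3.72% and 2.96% after centring. Differences of the 9 genes ran from -0.03 to 0.20 log2 units with a median of 0.05, below the median of 0.25 over all genes. After centring all 9 were below 0, with a median of -0.20. Kif20a and Anln were the genes with every centred Rnu11 cKO value below every control, as were 7.81% of all genes. As deposited no gene of the 9 had this pattern, and 0.910% of all genes did. At an unadjusted p under 0.05, 0 of the 9 passed as deposited and 5 centred (Anln, Cep55, Ect2, Kif20a and Prc1), against 48.3% and 21.6% of all genes. The 95% interval as deposited was -0.27 to 0.21 log2 units for Kif20a, the gene with the lowest difference, and -0.05 to 0.45 for Kif4, the gene with the highest.

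Between dKO and control, 0 of the 9 passed limma's threshold as deposited and 1, Prc1, was lower after centring, where 3.40% and 4.69% of all tested genes were called lower. Higher calls made up 1.79% and 3.74%. All 9 differences were below 0 on both scales, with medians of -0.18 and -0.16, and the all-gene median was -0.01 as deposited. Cep55, Kif23 and Prc1 had an unadjusted p under 0.05 on both scales, against 20.1% and 24.5% of all genes. The same 3 genes had every dKO embryo below every control on both scales, a pattern found in 8.44% of all tested genes as deposited and in 7.28% centred.

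Between dKO and Rnu11 cKO, Kif23, Prc1 and Cep55 fell and 6 of the 9 genes did not pass, where 38.8% of all tested genes were called lower and 0.612% higher. After centring none passed, where 3.83% were called lower and 2.10% higher. At an unadjusted p under 0.05, 5 of the 9 passed as deposited (Cep55, Kif23, Kif4, Prc1 and Racgap1, all lower in dKO), against 50.9% of all genes. Centred, Ect2 (0.17, higher in dKO) and Kif23 (-0.23, lower) passed, against 23.4%. The median difference of the 9 was -0.27 as deposited, beside -0.26 over all genes, and -0.00 centred. Kif23 and Prc1 kept their calls as deposited in each of the 12 fits that left out 1 embryo, with adjusted p from 0.00731 to 0.0287 and from 0.00963 to 0.0322. Kif23 and Prc1 had every dKO embryo below every Rnu11 cKO embryo as deposited, as did 32.8% of all genes, and centred none of the 9 had, against 7.38%. The number called lower was 5 without Rnu11 cKO embryo 1.

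**Figure D3:**
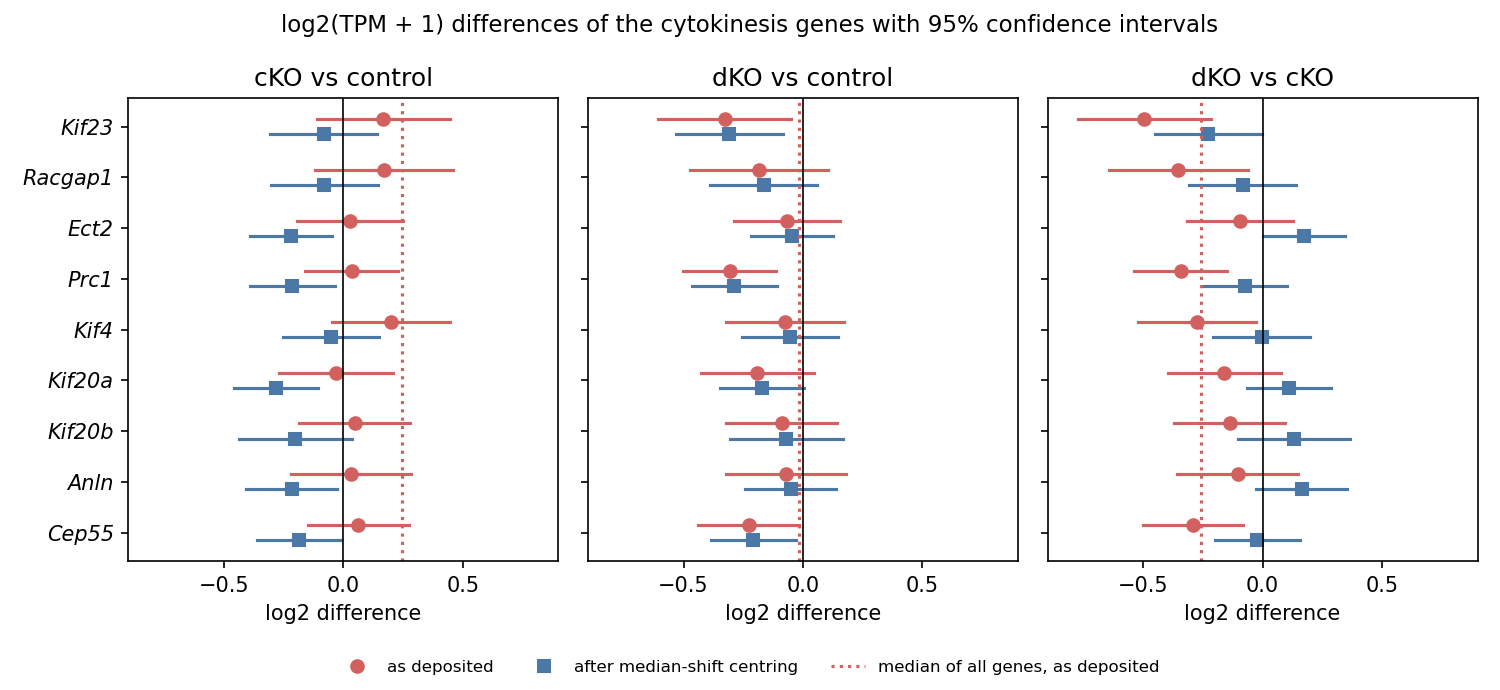
Log2 change of the 9 cytokinesis genes in each comparison with 95% limma intervals, as deposited and after median-shift centring; the horizontal axis is the difference of mean log2(TPM + 1). Rnu11 cKO against control estimates run from -0.03 to 0.20 as deposited and are all below 0 when centred, and all 9 dKO against control estimates are below 0 on both scales.

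Correlation across embryos differed widely among the 9 genes. Over the 12 centred libraries, the 36 pairs had Pearson correlations from -0.33 to 0.90 with a median of 0.37, and 34 were above 0. After group means were removed the median was 0.30. The closest pairs were Ect2 with Anln (0.90) and Prc1 with Cep55 (0.85), and the least alike was Kif20b with Racgap1 (-0.33). Against the mean of the other 8 genes, Kif20a had the highest correlation (0.86), at rank 19 among tested genes outside those 8. Racgap1 had the lowest (0.13, rank 4108), with Kif20b next (0.34, rank 2147). Of 11755 genes outside the set, those most like the mean of the 9 were Cdca3 (0.93), Melk (0.93), Spag5 (0.93), Rnaseh2b (0.92), Cenpe (0.92), Nusap1 (0.91), Hist1h2bm (0.89), Kif11 (0.89), Hist1h1d (0.88) and Pimreg (0.88), of which Cenpe, Nusap1 and Kif11 stand on the G2 and M phase list. The list's 27 genes had a median correlation of 0.78, S phase genes 0.48, and all genes -0.03. These correlations describe 12 libraries that share group differences and centring, and carry no p.

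**Figure D4:**
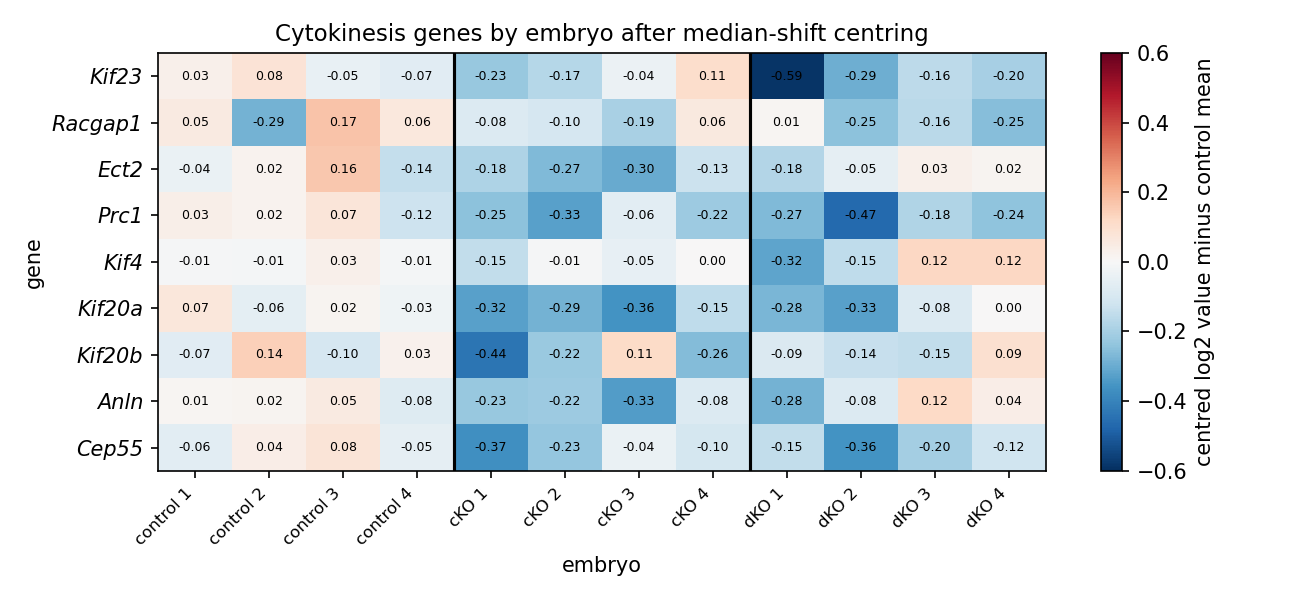
Centred log2(TPM + 1) of each cytokinesis gene in each embryo minus the control mean of that gene, as a coloured grid with embryos in columns and genes in rows. Rnu11 cKO columns are below 0 throughout for Kif20a, Anln, Ect2, Prc1 and Cep55, and dKO columns are below 0 throughout for Kif23, Prc1 and Cep55.

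Partner genes were read from lists by role. Of the 4 genes of the chromosomal passenger complex, the kinase module that Kif20a carries, none was called between Rnu11 cKO and control on either scale. Of all tested genes 34.3% were called higher and 1.09% lower as deposited, and 3.72% and 2.96% centred. Aurkb, its kinase, averaged 6.76 ± 1.32 TPM in controls, 6.93 ± 1.45 in Rnu11 cKO and 4.65 ± 0.191 in dKO embryos (SD, n = 4 each). Against Rnu11 cKO, Aurkb was the 1 of the 4 called lower in dKO (-0.47 log2 units, adjusted p = 0.0175 in limma), where 38.8% of all tested genes were. After centring it did not pass (adjusted p = 0.237), and the call as deposited was lost without Rnu11 cKO embryo 4 (adjusted p = 0.0513). Against control the Aurkb difference in dKO was -0.44 (adjusted p = 0.0809) as deposited. It passed centred (-0.42, adjusted p = 0.0230), where 4.69% of all tested genes were called lower. Incenp, Birc5 and Cdca8, the other 3 subunits, differed by -0.23, -0.02 and -0.12 log2 units between dKO and control and none passed. Plk1, the kinase that primes centralspindlin for Ect2 binding, Kif14, a midzone kinesin that binds Prc1, and Cit, the citron kinase of the midbody, passed in none of the 3 comparisons on either scale.

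Contractile ring genes included Diaph3, a formin that nucleates ring actin. Diaph3 was at 5.97, 5.57, 6.19 and 6.58 TPM in control embryos, at 5.12, 6.20, 5.93 and 7.25 TPM in Rnu11 cKO embryos and at 4.34, 4.08, 4.33 and 3.81 TPM in dKO embryos. All dKO embryos were below all embryos of the other groups. It fell in dKO against control by 0.46 log2 units (adjusted p = 0.0129 in limma), and by 0.44 (adjusted p = 0.00214) centred. The call held in all 12 fits that left out 1 embryo, with adjusted p from 0.00597 to 0.0488. Diaph2, a second formin, fell by 0.43 (adjusted p = 0.0271), a call lost without control embryo 2, 3 or 4 and without dKO embryo 3 or 4 (adjusted p up to 0.0758). Of the 17 ring genes, 0 were called higher and these 2 lower in dKO against control, where 1.79% and 3.40% of all tested genes were. The list median was -0.05. Between Rnu11 cKO and control 10 of 17 were called higher as deposited, where 34.3% of all tested genes were, with a median of 0.32 beside 0.25 over all genes. After centring 1 was called higher (Myl12b) and 1 lower (Diaph3, by 0.25 log2 units, adjusted p = 0.0450), with a median of 0.07. Of all tested genes 3.72% were called higher and 2.96% lower on that scale. Between dKO and Rnu11 cKO 10 were called lower as deposited, where 38.8% of all genes were, and 0 centred. Myl12b, a regulatory light chain of non-muscle myosin, rose on both scales, by 0.58 log2 units (adjusted p = 0.000526) as deposited and by 0.33 (adjusted p = 0.0181) centred.

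Of 22 tested abscission and ESCRT genes, 15 were called higher in Rnu11 cKO than in control as deposited, where 34.3% of all tested genes were, and 14 lower in dKO than in Rnu11 cKO, where 38.8% were. The list had none called in any comparison after centring. In dKO against control none passed on either scale, and the list median was 0.03 as deposited. Of the 5 midzone partners, 2 were called higher in Rnu11 cKO than in control as deposited (34.3% of all tested genes). After centring 1 was called lower (2.96%). In dKO against Rnu11 cKO 2 were called lower as deposited (38.8%) and 1 centred (3.83%).

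The other 27 G2 and M phase genes had medians of -0.03 in Rnu11 cKO and -0.30 in dKO against control, and of -0.28 on both after centring. In dKO against control 4 were called lower as deposited (Ndc80 and Hmmr by 0.46, Kif11 by 0.42 and Kif18a by 0.30 log2 units, with adjusted p from 0.0246 to 0.0476 in limma), and 7 centred. Each of these 4 calls was lost without control embryo 2, 3 or 4 and without dKO embryo 2, and some also without other embryos, with adjusted p up to 0.126. Of all tested genes 3.40% were called lower as deposited in that comparison and 4.69% centred. Between Rnu11 cKO and control 1 was called higher as deposited, Ckap2, a spindle protein gene, and after centring 1 higher and 7 lower. Of all tested genes 34.3% were called higher as deposited, and 3.72% higher and 2.96% lower after centring. Ckap2 averaged 22.5 TPM in controls, 34.3 in Rnu11 cKO and 17.2 in dKO embryos. It was higher in Rnu11 cKO than in control by 0.58 log2 units (adjusted p = 0.00194) and lower in dKO than in Rnu11 cKO by 0.95 (adjusted p = 0.000115), and both calls held centred.

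S phase genes had 2 of 20 called lower in Rnu11 cKO than in control, Pcna by 0.37 and Tyms by 0.28 log2 units (adjusted p = 0.0360 and 0.0414 in limma), calls that were lost without any 1 of control embryos 2 to 4 or Rnu11 cKO embryos 1 to 3, and for Tyms also without control embryo 1 or dKO embryo 3 or 4. After centring 6 of 20 were called lower. Of all tested genes 1.09% were called lower as deposited and 2.96% centred. In dKO against control 2 of 20 were called lower as deposited (3.40% of all tested genes) and 3 centred (4.69%). Those called as deposited were Rrm2, lower by 0.72 (adjusted p = 0.00732), and Tyms, lower by 0.56 (adjusted p = 0.00669). In dKO against Rnu11 cKO 3 of 20 were called lower as deposited (38.8%) and 0 centred (3.83%). Rrm2 encodes a ribonucleotide reductase subunit and Tyms thymidylate synthase. Among 12 genes of the complexes that bind the CHR and their partners, E2f5, a repressor E2F, fell by 0.36 in Rnu11 cKO (adjusted p = 0.00442) and by 0.50 in dKO (adjusted p = 0.00239) against control. Mybl2, the B-MYB of the activating complex, fell by 0.44 in dKO against control (adjusted p = 0.0450), a call that held only without control embryo 2 and without dKO embryo 4 among the 12 fits that left out 1 embryo. Rbl2, the p130 of DREAM, was lower in dKO than in Rnu11 cKO by 0.64 (adjusted p = 0.000682) and by 0.37 (adjusted p = 0.0426) centred. Of the 12, 1 was called higher and 1 lower in Rnu11 cKO against control as deposited, where 34.3% and 1.09% of all tested genes were. In dKO 2 were called lower against control (3.40% of all genes) and 4 against Rnu11 cKO (38.8%).

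Marker sums of some cell types in the dissected tissue differed between groups, as deposited. Summed over fixed lists, microglial markers were at 6.42 to 7.35 TPM in controls, 21.7 to 30.5 in Rnu11 cKO and 7.54 to 9.47 in dKO embryos, and vessel and pericyte markers at 9.27 to 11.97, 18.2 to 24.0 and 11.6 to 18.7 TPM. Neuronal markers, which include Tubb3 and Dcx, were at 229 to 253, 300 to 368 and 157 to 240 TPM. The sum of 8 radial glial markers was 253 to 280, 298 to 351 and 274 to 280 TPM, in which Fabp7 averaged 109.3, 149.4 and 127.9 TPM. Not all of the 8 followed that sum: in Rnu11 cKO embryos the mean of Pax6 was 99.0% of control, that of Sox2 86.1% and that of Hes5 67.6%. The intermediate progenitor markers, which include Eomes, were at 40.9 to 58.4, 41.5 to 56.3 and 39.3 to 48.8 TPM. Marker sums of meninges were 22.7 to 39.4, 40.9 to 49.1 and 35.8 to 52.5 TPM, those of hem and choroid plexus 38.4 to 94.0, 68.2 to 233 and 60.6 to 273 TPM, and those of red blood cells 1891 to 2799, 2258 to 3117 and 2032 to 2661 TPM. Those of ventral telencephalon were 1.73 to 2.45 TPM in controls, 3.43 to 5.29 in Rnu11 cKO and 1.68 to 3.73 in dKO embryos, with 1 of the 8 markers tested. None of the listed markers was at 0 in all libraries. After centring, 4 of 5 tested microglial markers were called higher in Rnu11 cKO than in control, 3 of 5 vessel and pericyte markers and 1 of 4 meningeal markers. Neuronal, radial glial, intermediate progenitor, ventral, red blood cell and hem and choroid plexus lists had none called higher. Called lower were 2 radial glial and 3 intermediate progenitor markers. Of all tested genes 3.72% were called higher and 2.96% lower. In dKO against control, centred, 2 of 4 meningeal and 1 of 5 vessel and pericyte markers were called higher (3.74% of all tested genes). In that comparison 2 of 8 neuronal and 1 of 7 intermediate progenitor markers were called lower (4.69%). Against Rnu11 cKO, 3 of 5 microglial and 2 of 8 neuronal markers were called lower in dKO, centred (3.83%). No other listed marker was called centred in either dKO comparison. In bulk tissue fewer cells of a type and less RNA per cell cannot be told apart, and the part of cell composition in the differences of the 9 genes was not tested.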

How the data were processed

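Each of the 12 libraries has 1 table of TPM per gene symbol, deposited by the authors. The unit is read from the values, since every table sums to 1000000 over 54735 symbols. Total RNA libraries kept strand, per the labels, and HISAT2 and mm10 are named in the submitters' processing notes. The quantifier, its annotation and strand setting are not given in the sources used here, and depth is unknown. Groups came from the genotype labels. Values were tested as log2(TPM + 1), where a fold of a low gene is understated, with limma 3.58.1 in R 4.3.3 (trended variance, 1 fit over 3 groups) on the 11764 genes whose mean reached 1 TPM, with adjusted p under 0.05 as the threshold, and checked on simulated data. In that check 82 of 200 genes given a difference of 0.5 log2 units in Rnu11 cKO were recovered, with 2 false calls. Genes that did not pass can therefore still differ by amounts of this size. The members and lists were chosen with earlier results of these data known. Named genes were the 9 genes, the chromosomal passenger complex, Plk1, Kif14, Cit, Diaph3, Rnu11, Trp53, Cdkn1a, Mdm2 and the 10 most alike. Added per list and comparison were the 2 largest and the 2 smallest changes among genes called on both scales with the same sign. Alternatives were pseudocount 0.1, no filter, a mean of at least 5 TPM, 2 groups per fit, the replicate block, protein-coding rescaling, quantile normalization and leaving out each embryo; centring with a left-out embryo or with pseudocount 0.1 was added after seeing the data.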

Additional observations from a re-analysis of the deposited data

Results flagged for a closer look

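Kif20b in dKO embryos was the 1 of 30 sets of 4 values in which an extreme embryo stood apart from the other 3. Embryo 4 was high at 7.17 TPM, and its gap to the nearest of the others was 0.838 of the range of the group, above Dixon's critical value for 4 values. Chance alone gives 1.5 such sets in 30.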

How the results depend on the processing

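Direction depended on scaling for most of the 9 genes. Against control, the Rnu11 cKO log2 differences under centring, protein-coding rescaling and quantile normalization were -0.22, -0.11 and -0.22 for Anln, -0.19, -0.070 and -0.20 for Cep55, -0.22, -0.12 and -0.19 for Ect2, -0.20, -0.089 and -0.21 for Kif20b, -0.21, -0.11 and -0.19 for Prc1, and -0.25, -0.13 and -0.26 for Diaph3, all above 0 as deposited. Centring and quantile normalization gave -0.082 and -0.049 for Kif23, -0.051 and -0.058 for Kif4 and -0.080 and -0.053 for Racgap1. For dKO against Rnu11 cKO, the same 3 scalings gave 0.16, 0.097 and 0.17 for Anln, 0.17, 0.12 and 0.16 for Ect2, 0.11, 0.042 and 0.12 for Kif20a and 0.13, 0.058 and 0.15 for Kif20b, all below 0 as deposited, and Kif4 was at 0.016 under quantile normalization and at 0.012 centred with pseudocount 0.1. The cause was not tested. The 3 genes called lower in dKO than in Rnu11 cKO became 0 under centring, protein-coding rescaling and quantile normalization. In dKO against control the 0 became 1 under centring, which returned to 0 with pseudocount 0.1 and with the replicate block, and in Rnu11 cKO against control pseudocount 0.1 with centring gave 1.

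All genes called in Rnu11 cKO against control went from 4163 to 1900 with a mean of at least 5 TPM, 786 centred, 1539 with protein-coding rescaling and 810 with quantile normalization. In dKO against Rnu11 cKO they went from 4636 to 2220, 698, 1139 and 798, and in dKO against control from 610 to 294, 992, 1080 and 1029. Leaving out 1 embryo gave 2468 to 4353, 3082 to 4851 and 333 to 705 genes in these comparisons, and 461 to 951, 253 to 728 and 542 to 1035 centred. The number of the 9 genes called lower in dKO against Rnu11 cKO was 2 to 5, and centred it was 0 to 1 in both comparisons with control.

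Leaving out 1 embryo moved small differences across 0 in Rnu11 cKO against control, over ranges of -0.060 to 0.10 for Anln, -0.013 to 0.15 for Cep55, -0.069 to 0.074 for Diaph3, -0.050 to 0.086 for Ect2, -0.12 to 0.024 for Kif20a, -0.028 to 0.16 for Kif20b and -0.013 to 0.077 for Prc1. In dKO against control they were -0.13 to 0.014 for Anln (-0.11 to 0.024 centred), -0.14 to 0.020 for Kif4 (-0.12 to 0.029 centred) and -0.094 to 0.0068 for Ect2 centred. In dKO against Rnu11 cKO, centred, they were -0.084 to 0.029 for Cep55 and -0.065 to 0.082 for Kif4.

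Embryos of the same replicate number were not alike in these values. Their deviations from the group means had correlations from -0.095 to 0.075, and 1 of 12 libraries was closest to one of its own number. Whether same-numbered embryos were littermates cannot be read from these correlations, and the labels do not say. The replicate block gave 2979, 3608 and 409 genes for Rnu11 cKO against control, dKO against Rnu11 cKO and dKO against control, with 2 of the 9 genes lower in dKO than in Rnu11 cKO, and with centring 502, 415 and 598 genes. Depth is unknown in TPM, and 4 embryos a group limit the precision.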

Other observations

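The 9 cytokinesis genes and the other 27 G2 and M phase genes differed in size of mean change after centring, as a description with no test. The mean log2 level of the 9 genes was below that of the other list by 0.55 ± 0.014 in controls, by 0.44 ± 0.041 in Rnu11 cKO and by 0.45 ± 0.084 in dKO embryos (SD, n = 4 each). By embryo, the 9 genes minus the other list ran from -0.560 to -0.528 in controls and from -0.487 to -0.395 in Rnu11 cKO. In dKO it ran from -0.566 to -0.384, a range that spans that of controls. On the centred scale the 9 genes averaged 3.83 ± 0.039, 3.66 ± 0.072 and 3.68 ± 0.098, and the other list 4.38 ± 0.036, 4.10 ± 0.085 and 4.13 ± 0.106. A fold of a low gene is understated on log2(TPM + 1), and the 9 genes had the lower mean.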
